A study of Mus musculus with 9 samples.

Results

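The collapsin response mediator proteins, or CRMPs, are a family of 5 cytosolic phosphoproteins encoded in the mouse by Crmp1, Dpysl2, Dpysl3, Dpysl4 and Dpysl5. The 5 genes were taken by symbol from a table of 24100 genes, and all 5 were among the 14761 genes with enough counts to be tested. They were chosen with earlier results of these data in view, so their levels and changes are given as a description, without p-values. The table came from poly(A) RNA of cells, neural by label, that had been derived from mouse embryonic stem cells (mESCs). Every culture stably expressed a PiggyBAC transgene for histone H4 with a 3HA tag, an epitope for antibody detection, on top of the histones of the cell. The transgene was wild type in the H4WT group, carried arginine in place of lysine 91 in H4K91R, and carried glutamine there in H4K91Q. Each group had 3 libraries. The labels name neither the transgene's promoter, nor whether a line is clonal, nor whether the 3 replicates are separate cultures, so the errors and p-values measure only the spread between these libraries. The level of the transgene was not analysed here.

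CRMPs bind tubulin and promote microtubule assembly, and they were first known as mediators of growth cone collapse, the retraction of an axon tip that the secreted guidance cue semaphorin 3A sets off. Phosphorylation by Cdk5 or Gsk3 lowers the affinity of the best studied member, CRMP2, for tubulin and so couples guidance signals to the cytoskeleton. They resemble the pyrimidine-degrading enzyme dihydropyrimidinase in fold but lack its activity. Developing neurons express all of them, and Dpysl3 is also known from cells outside the nervous system.

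In these cultures the family was split by direction. Crmp1, Dpysl4, Dpysl5 and, to a lesser extent, Dpysl2 were higher with either mutant histone than with H4WT, and Dpysl3, by far the most abundant member in H4WT, was lower. Dpysl3 made up 83.0 ± 1.71% of the length-scaled family signal in H4WT (mean ± SD, n = 3 libraries), and 41.6 ± 2.597% in H4K91R and 42.9 ± 0.791% in H4K91Q. The share of Crmp1 went from 8.69 ± 1.27% in H4WT to 33.3 ± 1.72% and 31.7 ± 0.863%.

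The members are related in sequence, so it matters whether reads of one could be counted for another. Over aligned bases, the coding sequences of the longest protein-coding GENCODE M21 transcripts were 60.4% to 74.4% identical between members. Crmp1 and Dpysl2 were the most similar pair, and Dpysl5 was the most distant member, with 60.4% to 62.8% identity to the other 4. The longest identical coding run between any pair was 29 bases, and all protein-coding transcripts of any pair shared 0 words of 31 bases. How well whole reads of the members can be told apart was not tested. The longest run, found for Crmp1 with Dpysl4 and for Dpysl2 with Dpysl4, is shown for the first pair. It lies in exon 9 of both transcripts on the plus strand (GRCm38), at chr5:37280505-37280563 for Crmp1 and chr7:139096206-139096264 for Dpysl4, and capitals mark the identical bases.
Crmp1: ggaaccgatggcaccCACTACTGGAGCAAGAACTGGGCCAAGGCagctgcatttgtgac
Dpysl4: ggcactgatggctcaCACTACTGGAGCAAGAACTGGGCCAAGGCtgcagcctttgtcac
Outside the capitals the aligned bases of the pair differ at several places.

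Crmp1 and Dpysl5 are shown with RefSeq promoter windows (GRCm38.p6, plus strand) because they were the members for which windows were matched. Each window runs from 250 bases before to 50 bases after the start. The windows are chr5:37241808-37242107 for Crmp1 and chr5:30711314-30711613 for Dpysl5. Capitals mark the GC box GGGCGG on either strand, so that it also appears as its reverse complement.
Crmp1: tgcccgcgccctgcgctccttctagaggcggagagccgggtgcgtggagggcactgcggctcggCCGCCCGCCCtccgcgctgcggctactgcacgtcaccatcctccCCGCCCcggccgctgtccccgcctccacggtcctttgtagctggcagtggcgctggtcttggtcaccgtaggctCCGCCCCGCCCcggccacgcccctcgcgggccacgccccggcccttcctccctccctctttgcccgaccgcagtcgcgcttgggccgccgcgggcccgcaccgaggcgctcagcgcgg
Dpysl5: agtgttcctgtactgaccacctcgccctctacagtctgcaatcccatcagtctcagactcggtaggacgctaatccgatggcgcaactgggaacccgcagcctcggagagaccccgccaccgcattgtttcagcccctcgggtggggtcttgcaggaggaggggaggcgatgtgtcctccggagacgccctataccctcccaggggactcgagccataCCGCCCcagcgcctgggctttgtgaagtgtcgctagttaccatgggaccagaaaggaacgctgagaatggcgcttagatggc
The table also lists another Crmp1 start, with the window chr5:37245514-37245813, which is not printed. Of the windows shown, that of Crmp1 held 41 CpG dinucleotides, more than 96.5% of 32851 such windows, and its GC content was 77.0%. It held 5 GC boxes, some of them overlapping or adjoining, and 5.49% of all windows held at least 4. The other Crmp1 window held 20 CpG, with a GC content of 61.0% and 2 GC boxes. The Dpysl5 window held 19 CpG, against a median of 7 over all windows, with a GC content of 61.0% and 1 GC box. A GC box was present in 35.7% of all windows. None of these 3 windows held the E box CAGCTG, the TATA box TATAAA or the cyclic AMP response element TGACGTCA, searched on both strands, which 16.3%, 13.6% and 1.79% of windows held. Windows matched 2 of the 5 members, and no window was matched for Dpysl2, Dpysl3 or Dpysl4.

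The libraries held 8970553 to 28887501 counts, and levels are given as CPM, counts scaled to a common library total, with TMM factors that adjust each total for its composition. The cultures were mixed, as far as marker genes show. Neuronal markers were present in every group, with Map2, a dendritic microtubule protein, at 43.4 CPM in H4WT, 221 CPM in H4K91R and 154 CPM in H4K91Q. The collagen gene Col3a1 was far above that, at 2846, 3734 and 3373 CPM. In bulk RNA of such cultures, fewer cells of a type and less RNA per cell cannot be told apart.

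Crmp1, a mediator of semaphorin 3A signalling in growth cones, stood at 45.9, 55.8 and 56.8 CPM in the 3 H4WT libraries. It stood at 188, 212 and 236 CPM in H4K91R and at 143, 156 and 164 CPM in H4K91Q. The 3 groups did not overlap, H4K91R was the highest, and replicate 1 was the lowest library of each group. The log2 change was 1.998 ± 0.10 (SE) for H4K91R against H4WT, a 3.99-fold difference, and 1.54 ± 0.10 for H4K91Q, 2.91-fold.

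Dpysl4, also called CRMP3 and the least abundant member in H4WT, showed the largest change. It had 56, 289 and 91 counts in the H4WT libraries, or 6.73, 10.7 and 11.1 CPM. In H4K91R it reached 48.2, 59.0 and 61.2 CPM, and in H4K91Q 33.2, 38.7 and 38.1 CPM. Again the groups did not overlap and H4K91R was the highest. The log2 change was 2.52 ± 0.15 for H4K91R and 1.91 ± 0.15 for H4K91Q, or 5.72-fold and 3.75-fold. Of all tested genes, 0.752% had a higher log2 change in H4K91R and 1.45% in H4K91Q.

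Dpysl5, or CRMP5, the most divergent member and one that shapes dendrites and filopodia, followed the same order. Its levels were 21.2, 28.4 and 27.7 CPM in H4WT, 100.4, 114 and 116 CPM in H4K91R, and 65.1, 65.7 and 77.9 CPM in H4K91Q. The groups were separate, with H4K91Q between the others. The log2 change was 2.08 ± 0.11 for H4K91R (4.22-fold) and 1.41 ± 0.11 for H4K91Q (2.67-fold).

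Dpysl2, or CRMP2, the best studied tubulin-binding member, was raised less. It stood at 42.6, 33.3 and 47.3 CPM in H4WT, 62.6, 69.3 and 76.3 CPM in H4K91R, and 76.7, 74.8 and 73.9 CPM in H4K91Q. All 6 mutant libraries were above all 3 H4WT libraries, while the mutants overlapped each other. The log2 change was 0.78 ± 0.12 for H4K91R and 0.90 ± 0.11 for H4K91Q, or 1.71-fold and 1.86-fold. Dpysl2 was the member with the highest level in H4K91Q rather than in H4K91R, by 0.12 ± 0.11 on the log2 scale, which is about 1 standard error.

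Dpysl3, or CRMP4, which bundles actin filaments as well as binding tubulin, went the other way. It stood at 911, 805 and 1023 CPM in H4WT, 475, 470 and 476 CPM in H4K91R, and 367, 366 and 390 CPM in H4K91Q. Its groups did not overlap either, H4K91Q was the lowest, and the H4K91R libraries lay close together. The log2 change was -0.95 ± 0.082 for H4K91R and -1.29 ± 0.082 for H4K91Q, that is 1.93-fold and 2.44-fold lower. Of all tested genes, 94.6% had a higher log2 change than Dpysl3 in H4K91R and 97.4% in H4K91Q.

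**Figure D1:**
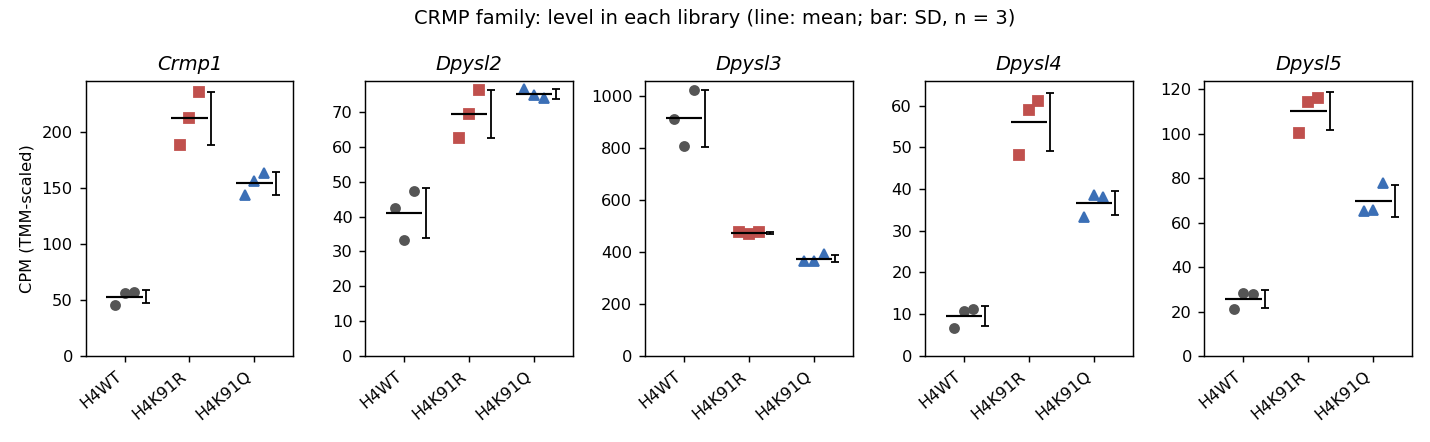
Level of each CRMP gene in each of the 9 libraries, in TMM-scaled CPM on a linear axis from 0, with the mean as a line and the SD as a bar (n = 3 libraries per group). Crmp1, Dpysl4 and Dpysl5 are highest in H4K91R, Dpysl2 is raised in both mutants, and Dpysl3 drops from 913 ± 109 CPM in H4WT to 474 ± 3.65 and 374 ± 13.7 CPM.

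Counted over the family, 4 members passed as higher and 1 as lower in H4K91R at an adjusted p below 0.05 (edgeR quasi-likelihood fit over all genes, Benjamini-Hochberg). Over all genes tested the same comparison called 46.0%, of which 20.9% were higher and 25.1% lower. The libraries of the groups did not overlap for 5 of 5 members and for 55.1% of all genes. For H4K91Q against H4WT the members again divided into 4 higher and 1 lower, beside 46.3% of all genes called, 22.5% higher and 23.8% lower, and groups that did not overlap for 5 of 5 members and 55.1% of genes. The median log2 change of the members was 1.998 for H4K91R and 1.41 for H4K91Q, and that of all genes was -0.030 and 0.013. Since the members were chosen on these contrasts, nothing is read from these counts. The mutant comparisons share the H4WT libraries, so the 2 sets of changes are not independent of each other.

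**Figure D2:**
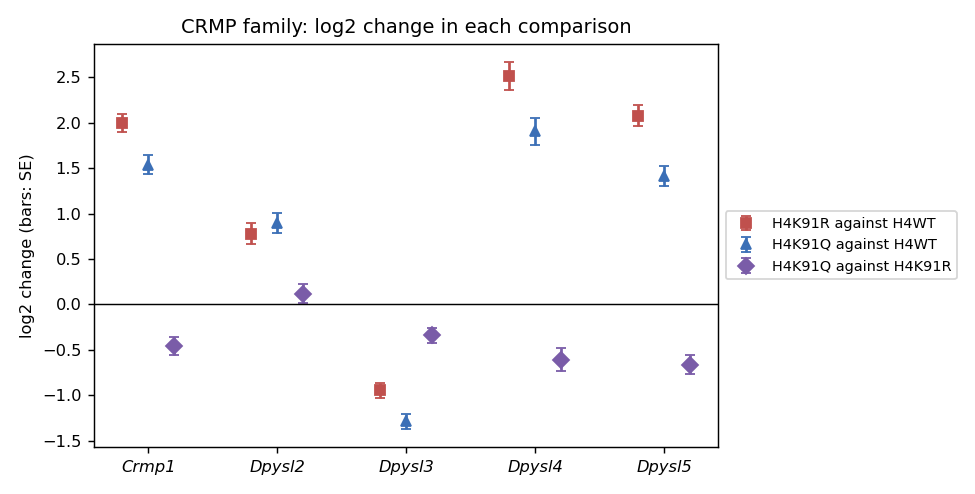
Log2 change of each CRMP gene in the 3 comparisons, with bars of 1 SE from the fit over all genes. Dpysl4 has the largest increase against H4WT (2.52 and 1.91), Dpysl3 is the member below 0 in both (-0.95 and -1.29), and Dpysl2 differs least between the mutants (0.12).

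Between the mutants, 4 members were lower in H4K91Q than in H4K91R and passed the same threshold, 0 were higher, and Dpysl2 did not pass. Of all genes, 5.16% were called in this comparison, 2.37% higher and 2.78% lower. The log2 differences of H4K91Q minus H4K91R were -0.46 ± 0.096 for Crmp1, -0.61 ± 0.13 for Dpysl4, -0.66 ± 0.10 for Dpysl5 and -0.34 ± 0.081 for Dpysl3. Thus for Crmp1, Dpysl4 and Dpysl5 the glutamine mutant lay nearer to H4WT, and for Dpysl3 it lay farther from it. The libraries of the mutants did not overlap for 4 members, against 25.4% of all genes. The members were chosen with earlier results of these data in view, so nothing is read from these counts either. As a description, the calls depended more on single libraries than those against H4WT. The call of Dpysl5 held without any single library, with differences from -0.75 to -0.62. Those of Crmp1 and Dpysl4 ended without H4K91R replicate 2 (-0.46 and -0.57), H4K91Q replicate 1 (-0.41 and -0.54) or H4K91Q replicate 2 (-0.48 and -0.66). That of Dpysl3 ended without any 1 of the H4K91R replicates 1, 2 and 3 (-0.34, -0.35 and -0.34) and without H4K91Q replicate 1 or 2 (-0.33 for each).

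The 5 genes lie apart in the genome (RefSeq, GRCm38.p6, the patch release of the build mm10 named for the table). Dpysl5 (Entrez 65254) spans positions 30711564 to 30799369 of chromosome 5, and Crmp1 (Entrez 12933) spans 37242058 to 37292163 of the same chromosome, 6.44 Mb away. Dpysl4 (Entrez 26757) lies on chromosome 7 from 139085981 to 139101795, Dpysl2 (Entrez 12934) on chromosome 14 from 66802864 to 66911041, and Dpysl3 (Entrez 22240) on chromosome 18 from 43320979 to 43438286. No 2 members are neighbours, and their counts come from whole genes, with isoforms not separated.

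Levels of different genes can be compared only per length, so CPM was divided by the kilobases of each gene's longest protein-coding transcript, from 3051 bases for Crmp1 to 5479 for Dpysl3. On this scale the order in H4WT was Dpysl3 at 167 ± 19.9 CPM per kb, Crmp1 at 17.3 ± 1.97, Dpysl2 at 9.08 ± 1.57, Dpysl5 at 4.96 ± 0.769 and Dpysl4 at 2.68 ± 0.684. With transcript length no neighbours in that order overlapped between libraries. In H4K91R Dpysl3 stood at 86.5 ± 0.667 CPM per kb and Crmp1 close behind at 69.5 ± 7.85. Dpysl5 came next at 21.2 ± 1.66, and Dpysl4 (15.8 ± 1.96) and Dpysl2 (15.4 ± 1.52) overlapped. In H4K91Q the order was Dpysl3 at 68.3 ± 2.49, Crmp1 at 50.6 ± 3.35, Dpysl2 at 16.6 ± 0.319, Dpysl5 at 13.4 ± 1.39 and Dpysl4 at 10.3 ± 0.839, with no overlap of neighbours. Dpysl2 was thus the third in H4WT and in H4K91Q, and level with Dpysl4 at the bottom in H4K91R.

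The ratio of Dpysl3 to Crmp1 per length summarises the change in makeup. It was 9.70 ± 1.53 in H4WT (8.03 to 11.04), 1.25 ± 0.143 in H4K91R and 1.35 ± 0.0625 in H4K91Q. The sum of the 5 members moved far less, from 201 ± 21.9 CPM per kb in H4WT (181 to 224) to 208 ± 12.8 in H4K91R (195 to 221), and the 2 ranges overlapped. It was 159 ± 7.12 in H4K91Q (153 to 167), below every library of the other groups. Dividing by coding length instead gave ratios of 17.5, 2.26 and 2.44, with the same fold differences between groups by construction. With coding length the sum was 515, 472 and 363 CPM per kb, so H4K91R lay below H4WT instead of above it, again with overlapping ranges. On that scale Crmp1 (22.3 to 27.6 CPM per kb) and Dpysl2 (19.4 to 27.5) overlapped in H4WT, and so did Dpysl2 (43.0 to 44.6) and Dpysl5 (38.4 to 45.9) in H4K91Q. Dpysl2 (36.4 to 44.4) lay above Dpysl4 (28.02 to 35.6) in H4K91R.

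**Figure D3:**
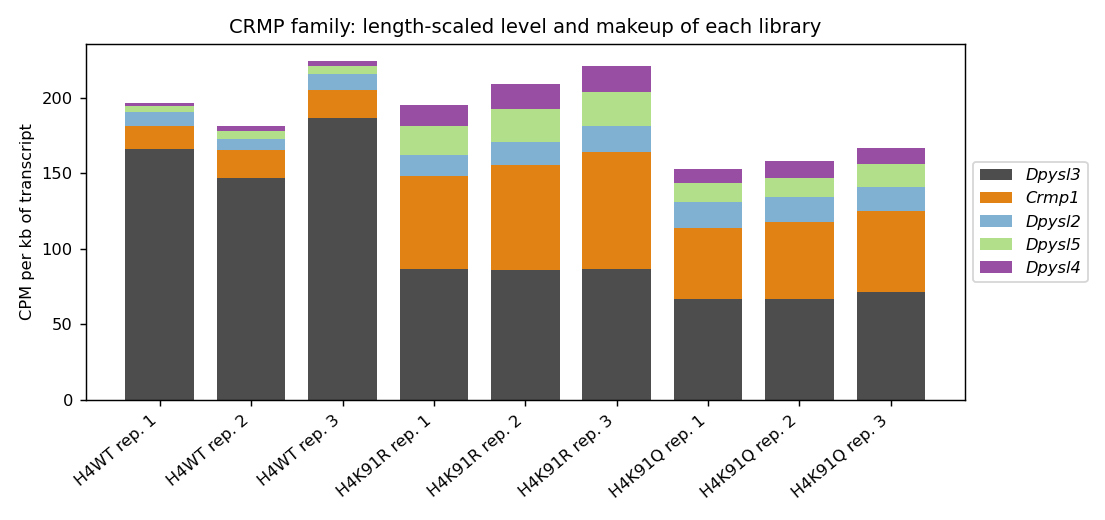
Length-scaled level of the 5 CRMP genes stacked for each of the 9 libraries, in CPM per kb of the longest protein-coding transcript. The dark Dpysl3 segment takes up 83.0% of the bar on average in H4WT, 41.6% in H4K91R and 42.9% in H4K91Q, and the Crmp1 segment widens from 8.69% to 33.3% and 31.7%.

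Across the 9 libraries Crmp1, Dpysl4 and Dpysl5 followed one another closely. The Pearson correlation of log2 CPM was 0.996 for Crmp1 with Dpysl4 and 0.993 for Crmp1 with Dpysl5. Dpysl2 followed them less closely, at 0.887 with Crmp1, 0.870 with Dpysl4 and 0.838 with Dpysl5. Dpysl3 ran against the other members, from -0.88 with Dpysl2 to -0.817 with Dpysl5. The 9 points share 3 group means and their libraries, so these values describe the group pattern above all.

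Genes averaging 5 CPM or more were compared with each member, leaving out CRMPs, genes without a symbol and clone or model names. Of these 11329 genes, those whose log2 CPM tracked each member best were as follows. For Crmp1 they were Nnat, an imprinted gene of the developing brain, Gprin1, a neurite outgrowth protein, and Mapt, the axonal microtubule protein tau (r = 0.998, 0.998 and 0.997 over 9 libraries). For Dpysl4 they were Phf21b, Mapt and Nnat, each at 0.998. For Dpysl5 they were Nrxn2, a presynaptic adhesion protein, Brsk2, a kinase of neuronal polarity, and Nectin1, an adhesion protein (0.998, 0.998 and 0.997). Dpysl2 had looser matches, with Lrrc75a at 0.981, Vash2, a tubulin carboxypeptidase, at 0.979 and Zfp788 at 0.974. The nearest genes to Dpysl3 were H3c14, a histone H3 gene, at 0.994, Crim1, a transmembrane protein that binds BMPs, at 0.993, and the phosphatase gene Dusp3 at 0.989. Crim1 went from 553 CPM in H4WT to 297 and 250.4 CPM, much as Dpysl3 did. With library totals alone in place of TMM, 2 of these 3 genes stayed among the nearest 3 for Crmp1, Dpysl2, Dpysl3 and Dpysl5, and 3 of 3 did for Dpysl4.

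Markers of cell types moved with these changes, and their part in the result was not tested. Of 15 neuronal markers 12 were higher and 0 lower in H4K91R, and 12 were higher and 1 lower in H4K91Q (edgeR, adjusted p below 0.05). For all marker lists the shares over all genes are 20.9% higher and 25.1% lower in H4K91R and 22.5% and 23.8% in H4K91Q. Their summed level was 578 to 683 CPM in H4WT, 1439 to 1722 in H4K91R and 1170 to 1282 in H4K91Q, the same order of groups as for Crmp1, Dpysl4 and Dpysl5. Within each group replicate 1 had the lowest sum, as it had the lowest Crmp1, Dpysl4 and Dpysl5. Of 10 markers of neural progenitors and radial glia 9 were higher in each mutant, with 0 and 1 lower, and sums of 260 to 323, 692 to 791 and 507 to 587 CPM. Of 8 tested markers of neural crest and peripheral neurons 5 were higher and 0 lower in each mutant, with sums of 24.0 to 30.8, 84.5 to 97.7 and 80.2 to 83.1 CPM.

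Against H4WT, smooth muscle markers moved in the same direction as Dpysl3. All 9 tested markers were lower in each mutant, with median log2 changes of -3.14 and -3.29, and their summed level was 4226 to 5064 CPM in H4WT, 554 to 847 in H4K91R and 524 to 586 in H4K91Q. Acta2, smooth muscle actin, went from 2479 CPM in H4WT to 315 and 245 CPM. Within H4K91R the sum varied from 847 CPM in replicate 1 to 554 and 577 CPM in the others, while Dpysl3 stood at 475, 470 and 476 CPM. Between the mutants 0 of the 9 smooth muscle markers were called, with a median log2 change of -0.15, and their sums overlapped. Acta2 differed there by -0.36 ± 0.13 on the log2 scale (edgeR adjusted p = 0.129) and did not pass. Of 6 tested epithelial markers 4 were lower and 0 higher in each mutant, with sums of 1274 to 1416, 820 to 919 and 888 to 1005 CPM. Fibroblast and mesenchyme markers were divided, with 3 higher and 3 lower of 11 in H4K91R and 4 and 3 in H4K91Q. Their sums were 8711 to 9765, 6707 to 7959 and 7210 to 7987 CPM. These sums lean on Fn1, at 2338 to 4095 CPM in H4WT, 396 to 969 in H4K91R and 355 to 560 in H4K91Q. Col3a1, the most abundant gene of the list, ran the other way, at 2674 to 3058, 3408 to 4351 and 3146 to 3603 CPM. The drop of the sums is thus not shared by the list as a whole. Of 8 pluripotency markers 7 were lower and 0 higher in H4K91R, and 6 were higher and 1 lower in H4K91Q, with sums of 223 to 248, 165 to 184 and 245 to 309 CPM. Klf4 was most of the H4WT sum, at 168 to 181 CPM. Pou5f1 stood at 19.0 to 35.2, 6.85 to 11.7 and 47.5 to 77.1 CPM. Between the mutants 7 of 8 pluripotency markers were higher and 0 lower in H4K91Q (median log2 change 2.22). Of 15 neuronal markers 7 were lower and 0 higher there. The shares over all genes were 2.37% higher and 2.78% lower.

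The sums for the oligodendrocyte lineage, mostly Pdgfra, which fibroblasts also express, were 532 to 620 CPM in H4WT, 642 to 727 in H4K91R and 647 to 734 in H4K91Q, with 4 of 6 tested markers higher and 1 lower in each mutant. Endothelial sums overlapped in all groups, at 43.9 to 51.9, 41.4 to 51.3 and 44.4 to 53.9 CPM. Blood and immune markers summed to at most 9.31 CPM in a library, with the haemoglobin gene Hbb-bs at 0 in all 9, and skeletal and cardiac muscle markers to at most 11.7 CPM, with Myod1, the muscle master regulator, at 0 in all 9.

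**Figure D4:**
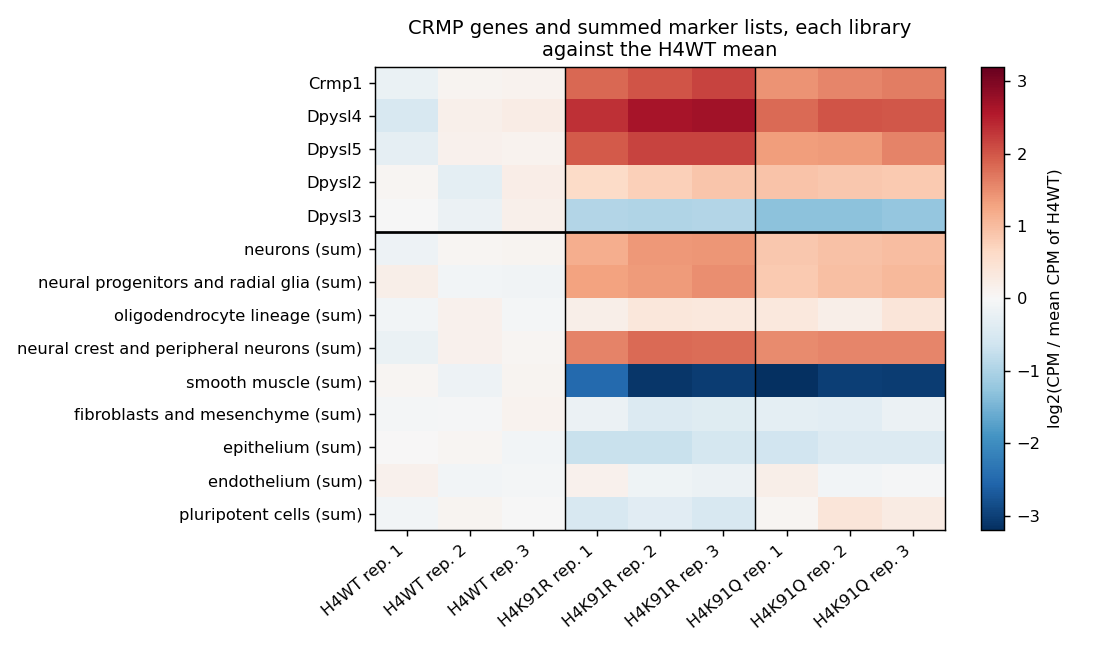
Log2 ratio of each library to the H4WT mean, for the CPM of each CRMP gene (top) and for the summed CPM of each marker list (bottom), on a colour scale from blue (lower) to red (higher). Crmp1, Dpysl4 and Dpysl5 share the red of the neuronal, progenitor and crest lists in the 6 mutant libraries, and Dpysl3 is blue there, as are the smooth muscle and epithelial lists.

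The genes around the family were taken by role from 5 lists of 67 genes in all, of which 63 were tested. In H4K91R 25 were higher and 18 lower, and in H4K91Q 23 were higher and 18 lower (edgeR, adjusted p below 0.05), beside 46.0% and 46.3% of all genes called in either direction. Nothing particular to the lists is read from this. The median log2 change over the 63 was 0.020 and 0.035. Adjusted p-values given here for single genes come from the same edgeR fit with Benjamini-Hochberg adjustment, with n = 3 libraries per group. The lists were chosen with earlier results of these data known.

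Of the semaphorin 3 ligands and their receptors, 14 of 15 were tested, and 5 were higher and 7 lower in H4K91R, with 4 and 6 in H4K91Q. The ligands were mostly lower. Sema3a, the ligand through which CRMPs were discovered, went from 138 ± 26.5 CPM (SD) in H4WT to 70.2 ± 5.57 in H4K91R and 83.4 ± 4.61 in H4K91Q (log2 -0.97 and -0.72, edgeR adjusted p = 2.86e-05 and 3.02e-04). Sema3c, a relative that also guides neural crest cells of the heart, went from 233 CPM to 86.5 and 114 CPM (log2 -1.43 ± 0.092 and -1.03 ± 0.090, edgeR adjusted p = 1.67e-07 and 2.05e-06). Sema3f was the exception among the abundant ligands, with log2 changes of 0.66 and 0.52.

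The receptors went both ways. Nrp1, the binding subunit for semaphorin 3A, was lower by 0.45 and 0.40 on the log2 scale, and its partner Plxna1, a signalling plexin, changed by -0.51 and -0.88. Plxna2 and Plxna3, other signalling plexins, were higher in H4K91R by 1.36 ± 0.16 and 0.90 ± 0.10 and in H4K91Q by 1.08 ± 0.16 and 0.44 ± 0.10. L1cam, an adhesion protein that associates with neuropilin 1, rose from 12.5 ± 2.75 CPM to 44.5 ± 3.47 in H4K91R (1.84 ± 0.14, edgeR adjusted p = 4.63e-07) and 26.6 ± 3.51 in H4K91Q (1.10 ± 0.14, edgeR adjusted p = 3.79e-05). It rose most of the list in H4K91R, and about as much as Plxna2 in H4K91Q.

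Of 16 kinases and phosphatases that act on CRMPs, 6 were higher and 3 lower in H4K91R, with 4 and 3 in H4K91Q (8 higher in H4K91Q with library totals in place of TMM). The increases were led by Cdk5r1, which encodes p35, the neuronal activator of the kinase Cdk5. Cdk5r1 stood at 8.41 ± 1.64 CPM in H4WT, 48.0 ± 10.5 in H4K91R and 33.4 ± 2.30 in H4K91Q, a log2 change of 2.44 ± 0.17 and 1.92 ± 0.17 (edgeR adjusted p = 2.60e-07 and 2.09e-06). Cdk5r2, which encodes the related activator p39, rose by 2.15 ± 0.17 and 1.59 ± 0.17. Gsk3b, a kinase that phosphorylates CRMPs after Cdk5 has primed them, was not called, at 170.0 ± 14.99, 164 ± 8.94 and 160 ± 13.4 CPM. Its log2 change was -0.046 ± 0.084 and -0.087 ± 0.084, and it turned positive with library totals in place of TMM (0.14 and 0.085) and, for H4K91R, without H4WT replicate 3 (0.022). Dyrk2, a priming kinase, was lower, at -0.58 and -0.70.

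Of 18 binding partners and transport genes, 7 were higher and 5 lower in H4K91R, with 7 and 6 in H4K91Q. The lower count was 3 in H4K91R without H4WT replicate 2, and 3 in each mutant with library totals in place of TMM. Kinesin 1, the motor that carries CRMP2 with its tubulin cargo along axons, has 3 heavy chain genes, which were divided. The neuronal forms rose, Kif5a by 1.92 ± 0.14 in H4K91R and 1.39 ± 0.14 in H4K91Q (edgeR adjusted p = 3.68e-07 and 5.81e-06) and Kif5c by 1.35 ± 0.087 and 0.95 ± 0.087. The widely expressed Kif5b was lower, at 582, 397 and 427 CPM (log2 -0.55 and -0.45). Chn1, the Rac regulator chimaerin, rose by 1.45 ± 0.11 and 0.99 ± 0.11, and Cacna1b, the N-type calcium channel that CRMP2 binds, by 1.199 and 0.78. Cyfip1, a subunit of the WAVE complex through which CRMP2 acts on actin, was lower by 0.52 and 0.47, while Wasf1, the neuronal WAVE protein, rose by 0.57 and 0.54. Mical2, an actin-oxidising enzyme, changed by -0.84 and -1.21, while its relative Mical1 was higher by 0.39 and 0.61. Mical3 changed by -0.16, not called, and -0.39. Chn2, a relative of Chn1, changed by -0.24, not called, and -0.37.

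Tubulin is a main binding partner of the family. Of 11 tested alpha and beta tubulins 6 were higher and 2 lower in each mutant, with a median log2 change of 0.20 and 0.21. The lower count was 1 in H4K91R without H4WT replicate 1 or 2 or H4K91R replicate 1 or 2, and 1 in H4K91Q without H4WT replicate 1 or 2, H4K91R replicate 1 or H4K91Q replicate 1 or 3. It was 1 in each mutant with library totals in place of TMM. The higher count in H4K91Q ran from 4 to 6 without single libraries. Tubb3, the neuronal beta tubulin and also a marker in the neuronal list, rose by 1.45 ± 0.15 in H4K91R and 0.94 ± 0.15 in H4K91Q (edgeR adjusted p = 5.29e-06 and 1.99e-04). Tubb2b rose from 265 CPM to 539 and 396 CPM. Tubb6, a beta tubulin found in many non-neuronal cells, fell from 221 CPM to 129 and 99.5 CPM (-0.77 ± 0.11 and -1.15 ± 0.12, edgeR adjusted p = 1.16e-04 and 5.55e-06). Tubulin genes are near-identical over parts of their coding sequence, so their counts are less certain than those of other genes.

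Of the 6 genes of pyrimidine breakdown and synthesis, which include enzyme relatives of the family, 4 were tested. In H4K91R 1 was higher and 1 lower, and in H4K91Q 2 were higher and 1 lower. Without single libraries the higher count ran from 0 to 1 in H4K91R and from 1 to 2 in H4K91Q. Dhodh was higher by 0.30 ± 0.11 and 0.33 ± 0.11 on the log2 scale, and Dpyd by 0.93 ± 0.22 in H4K91Q. Dpys, dihydropyrimidinase itself, had too few counts to be tested. Cad, whose dihydroorotase domain is a distant relative of the CRMPs, was lower by 0.59 ± 0.093 in H4K91R and 0.71 ± 0.093 in H4K91Q on the log2 scale (edgeR adjusted p = 1.84e-04 and 4.49e-05). Umps, which completes uridine synthesis, stood at 61.1, 60.9 and 62.7 CPM and was not called.

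**Figure D5:**
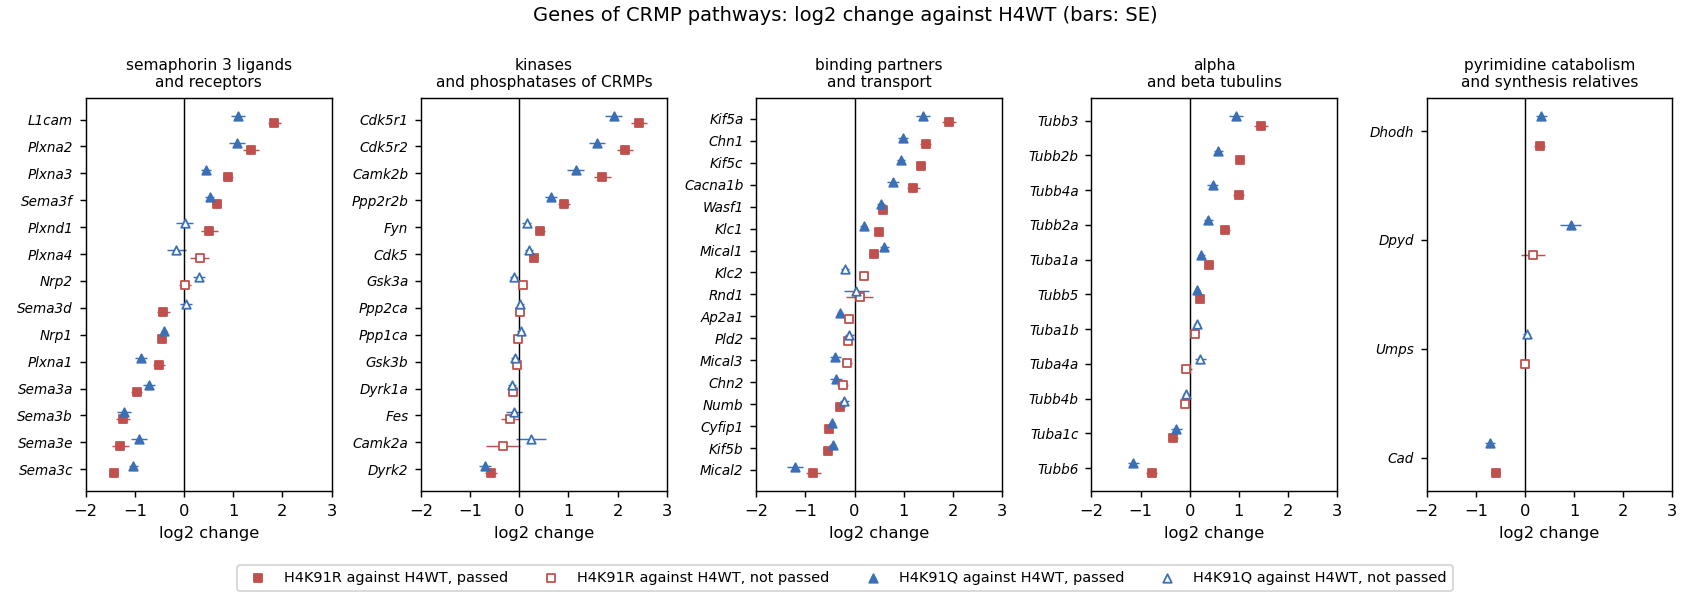
Log2 change against H4WT of tested genes in the 5 pathway lists, a few members not drawn, with bars of 1 SE, squares for H4K91R, triangles for H4K91Q and open symbols for genes that did not pass. Of the squares, Cdk5r1, Cdk5r2, Kif5a and L1cam lie farthest to the right, and Sema3c, Sema3e and Sema3b farthest to the left.

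Between the mutants 10 of the 63 pathway genes were lower and 1 higher in H4K91Q, beside 2.78% of all genes lower and 2.37% higher. L1cam, with the smallest adjusted p of the semaphorin list here, was lower by 0.74 ± 0.13 on the log2 scale (edgeR adjusted p = 0.00691). The count of lower genes depended on single libraries and on the method. It was 17 without H4WT replicate 2, 2 without H4K91R replicate 2, and 1 without H4K91Q replicate 1 or H4K91Q replicate 2. It was 17 with DESeq2 or with no filter on low counts. The 1 higher gene, Sema3c, did not pass without H4K91R replicate 2 or 3 or H4K91Q replicate 2.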

How the data were processed

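The table held 9 libraries of poly(A) RNA, 3 each of H4WT, H4K91R and H4K91Q, prepared with an NEBNext kit per the labels' protocols. The deposited values are estimated counts per gene (expected counts), for which Salmon 0.8.2, DESeq2 (no version or role) and the build mm10 are named per the submitters' processing notes. All values were whole. Not given in the sources used here are the annotation, the use of strand and any rounding by the authors. Salmon shares reads among similar genes, so near-identical genes carry uncertain counts.

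Of 24100 Entrez IDs, 24045 matched a symbol in a RefSeq table for GRCm38.p6, and the other 55 stayed in the fit. Total counts ran from 8970553 to 28887501 (median 16364686), and a count of 0 allows up to 3 counts, or 0.111 to 0.367 CPM by library (counting error only). In edgeR 4.0.16 (R 4.3.3), filterByExpr (minimum count 10) kept 14761 genes. TMM factors ran from 0.911 to 1.06. A quasi-likelihood fit with 1 mean per group used all 9 libraries (biological coefficient of variation 8.82%), with two-sided tests and Benjamini-Hochberg adjustment over all tested genes. A gene was called below 0.05, and an SE is the log2 change divided by the root of its F statistic. Length scaling used the longest protein-coding GENCODE M21 transcript. Correlations used log2 CPM with a prior count of 2. Replicates of a group differed beyond sampling noise. The edgeR fit was tested on simulated counts for H4K91R against H4WT only, with far fewer changed genes than called here. The other steps were not tested on simulated data.

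The members and lists were chosen with earlier results of these data known. All 5 members were named. From each pathway list up to 3 called genes per comparison with the smallest adjusted p (mean of at least 1 CPM) were taken, any gene of at least 10 CPM could be named, and from each marker list its summed level and top genes. Some genes that this rule takes are given only in the plot of pathway genes or in counts. Some list members are not reported here by name or drawn. Alternatives were RLE and library size scaling, no filter, DESeq2 1.42.0, limma-voom (limma 3.58.1), the compared groups only, the replicate block, coding length and leaving out each library.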

Additional observations from a re-analysis of the deposited data

How the results depend on the processing

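All 5 members kept their direction and their call against H4WT under all 16 alternatives, with log2 changes in H4K91R of 1.92 to 2.18 for Crmp1, 0.63 to 0.96 for Dpysl2, -1.02 to -0.76 for Dpysl3, 2.37 to 2.70 for Dpysl4 and 1.98 to 2.26 for Dpysl5. In H4K91Q they were 1.45 to 1.71, 0.74 to 1.07, -1.37 to -1.11, 1.75 to 2.07 and 1.30 to 1.58 in that order of members. Scaling by library totals moved the median over all genes to 0.15 and 0.18 and the calls from 3092 higher and 3705 lower to 5031 and 2013 in H4K91R (45.5% to 71.4% higher), and from 3314 and 3516 to 5557 and 2069 in H4K91Q (48.5% to 72.9% higher). Between the mutants 350 genes were higher and 411 lower, and DESeq2 called 619 lower. Without single libraries the counts ran from 110 to 543 higher and 68 to 550 lower, and those of pathway genes from 0 to 1 higher and 1 to 17 lower. Pathway genes called lower there were 10, and 17 with DESeq2 or without the filter. The member differences between the mutants without single libraries were -0.54 to -0.38 (Crmp1), -0.37 to -0.33 (Dpysl3), -0.71 to -0.54 (Dpysl4) and -0.75 to -0.62 (Dpysl5), with the lost calls given in the report. Gsk3b, not called, turned to 0.14 and 0.085 with library totals and ranged from -0.11 to 0.022 in H4K91R without single libraries, above 0 without H4WT replicate 3; the cause was not tested. With coding length the shares in H4WT, H4K91R and H4K91Q were 5.01%, 21.8% and 20.6% for Crmp1 and 86.3%, 49.0% and 50.2% for Dpysl3, and in the mutants 8.54% and 12.1% for Dpysl2, 6.90% and 5.87% for Dpysl4 and 13.8% and 11.3% for Dpysl5. Coding length also put Dpysl2 above Dpysl4 in H4K91R. Whether the replicate numbers pair the libraries was not settled. Of same-numbered pairs, 5 of 9 had a correlation of deviations over 0.1 (-0.163 to 0.198), and pairs with different numbers ran from -0.286 to 0.265. Of the libraries, 5 of 9 correlated best with their own number. The replicate 1 libraries correlated at 0.174 (H4WT with H4K91R), 0.172 (H4WT with H4K91Q) and 0.198 (H4K91R with H4K91Q). With the replicate block 3107 genes were higher and 3644 lower in H4K91R, 3344 and 3496 in H4K91Q, and 448 and 563 between the mutants. It changed no call of a member. The fewest counts of a member in a library were 56, for Dpysl4 in H4WT replicate 1.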
